A study of Mus musculus with 29 samples.

Results

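Interferon-stimulated genes (ISGs) are the genes that cells switch on when an interferon binds its receptor. A list of 35 mouse ISGs was followed in 29 arrays of mouse embryonic stem cells and of 3 later stages of their differentiation toward midbrain neurons. Of the 35 genes, 34 had a transcript cluster annotated with that gene symbol alone, out of 30142 genes with such a cluster, and Ifi44 is not analysed here. Irf1 alone among the ISGs had more than 1 such cluster, and its brightest cluster on average was taken. A filter on dim genes left 33 ISGs for testing among 22063 genes, and Mx1, at 2.99 to 3.31 in all arrays, did not pass it. All levels below are the deposited log2 values, in which 1 unit is a doubling, and a change is a difference of group means with its standard error (SE) from a limma fit over all arrays.

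Type I interferons bind the receptor made of Ifnar1 and Ifnar2, and type II interferon, the product of Ifng, binds Ifngr1 and Ifngr2. Janus kinases at these receptors phosphorylate STAT proteins. STAT2 and IRF9 are parts of the complex ISGF3, which binds the interferon-stimulated response element (ISRE), while type II interferon acts mainly through the gamma-activated site (GAS). The induced proteins include RNA sensors (Ddx58, which encodes RIG-I, Ifih1, which encodes MDA5, and Dhx58), antiviral effectors (the Ifit, Oas and Mx proteins, Rsad2, Bst2, Ifitm3, Eif2ak2), interferon-inducible GTPases (Gbp2, Gbp3, Igtp, Irgm1), transcription factors (Irf1, Irf7, Irf9, Stat2) and feedback regulators (Usp18, Isg15). In the brain, neurons and glia can both respond to interferon.

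Promoter sequences were examined because members that move together may carry the same element. RefSeq windows running from 250 bases before to 50 bases after the gene start (build GRCm38.p6) matched 26 of the 34 ISGs, and Oas2, Usp18, Mx1, Mx2, Dhx58, Parp9, Parp14 and Rtp4 had no entry. The ISRE-type motif (GAAA, any 2 bases, GAAA), searched on both strands, was found in 15 of the 26 ISGs (57.7%), against 3.99% of the 27025 genes with a window. The GAS-type motif (TTC, any 3 bases, GAA), which reads the same on both strands, was found in 8 of the 26 (30.8%), against 9.55% of all genes. The 2 motifs were searched separately and overlapping matches were each counted.

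The promoters of 5 ISGs are printed 5′ to 3′ along the gene's strand, each for the 250 bases before the start, with ISRE-type matches in capitals. Ifit3, Ifit1, Bst2 and Igtp had the largest differences between genotypes at the last stage. Isg15 is shown for contrast, since it held the most ISRE-type matches of the 5, namely 3, while its signal was at most 4.55 in any array. That signal lay within the range of the negative control probes, so low RNA and poor detection cannot be told apart.
Ifit3: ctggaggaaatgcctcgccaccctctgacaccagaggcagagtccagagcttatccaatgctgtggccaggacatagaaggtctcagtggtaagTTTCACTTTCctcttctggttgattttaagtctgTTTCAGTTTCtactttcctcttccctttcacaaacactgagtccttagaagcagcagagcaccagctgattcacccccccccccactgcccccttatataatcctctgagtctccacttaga
Ifit1: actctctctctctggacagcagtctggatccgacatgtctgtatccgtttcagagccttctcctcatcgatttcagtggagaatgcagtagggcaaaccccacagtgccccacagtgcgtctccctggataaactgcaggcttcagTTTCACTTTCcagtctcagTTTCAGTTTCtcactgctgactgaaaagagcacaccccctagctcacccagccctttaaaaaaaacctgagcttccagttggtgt
Bst2: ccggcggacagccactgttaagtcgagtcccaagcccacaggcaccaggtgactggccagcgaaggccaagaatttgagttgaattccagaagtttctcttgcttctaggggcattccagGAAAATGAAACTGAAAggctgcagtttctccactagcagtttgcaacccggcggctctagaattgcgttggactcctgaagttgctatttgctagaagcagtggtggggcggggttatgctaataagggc
Igtp: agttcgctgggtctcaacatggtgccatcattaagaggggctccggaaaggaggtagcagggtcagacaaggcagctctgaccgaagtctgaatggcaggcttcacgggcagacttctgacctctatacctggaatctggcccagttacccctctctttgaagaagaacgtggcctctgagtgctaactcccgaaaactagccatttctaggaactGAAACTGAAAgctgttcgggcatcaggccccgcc
Isg15: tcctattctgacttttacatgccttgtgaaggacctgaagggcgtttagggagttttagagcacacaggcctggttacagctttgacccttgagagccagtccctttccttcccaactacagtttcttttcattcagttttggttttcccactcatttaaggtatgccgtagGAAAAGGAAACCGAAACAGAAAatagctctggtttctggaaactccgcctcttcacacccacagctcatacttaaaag
The Ifit3 window is chr19:34583279-34583528 on the plus strand, with matches that begin at -156 and -122 from the gene start. The Ifit1 window is chr19:34640639-34640888 on the plus strand, with matches at -104 and -85. The Bst2 window is chr8:71537473-71537722 on the minus strand, and its 2 matches, at -130 and -124, overlap. The Igtp window is chr11:58199306-58199555 on the plus strand, with 1 match at -34. The Isg15 window is chr4:156200819-156201068 on the minus strand, with 3 overlapping matches at -78, -72 and -66. A match is a run of letters and was not tested as a binding site. Some ISGs are neighbours among RefSeq genes: Rsad2 and Cmpk2 on chromosome 12, Parp14, Dtx3l and Parp9 on chromosome 16, and Ifit2 and Ifit3 on chromosome 19.

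RNA came from a wild-type line (WT) and a line labelled BERKO, in which the estrogen receptor ERβ is knocked out, at the stages mESC (embryonic stem cells), NPC (neural precursors), mDPC (midbrain precursors) and MN (labelled mature midbrain neurons). LY3201, an agonist selective for ERβ, was given at 0.5 nM. NPC and mDPC received it or, per the labels' treatment protocol, the vehicle DMSO for 4 days, and the length of treatment of MN is not given in the sources used here. There were 3 arrays of untreated BERKO MN and 2 arrays in each of the other 13 groups: BERKO MN with LY3201, WT MN with LY3201 and untreated WT MN, the same 4 combinations of genotype and LY3201 in NPC and in mDPC, and untreated BERKO and WT mESC. All cultures were free of feeder cells, mESC were kept in medium with LIF, mDPC in medium with FGFb, FGF8b and Shh, and MN in medium with N2 and ascorbic acid. How the BERKO line was made, and whether it is 1 clone, are not given in the sources used here, so genotype and line cannot be told apart. The arrays are described as biological replicates, but titles of the 2 BERKO mESC arrays and of the 2 arrays of WT NPC with LY3201 share a number, and the number 10 stands in titles of the first array of BERKO MN with LY3201 and the first of WT MN with LY3201. Whether these share a culture is not given in the sources used here, and p-values then measure the spread between these arrays only.

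The targeted gene went against its label. Esr2, which encodes ERβ, was 3.80 to 4.46 over the arrays labelled BERKO and 3.21 to 3.47 over those labelled WT, with no overlap, and both ranges lay below the 95th percentile of the negative control probes of every array (6.63 to 7.66). Which part of the gene the knockout removed, and whether these probes lie in it, are not given in the sources used here. All genotype directions below are therefore between libraries labelled BERKO and WT. At the MN stage the midbrain dopaminergic markers Th, Slc6a3 and Pitx3 were at most 3.58, and none of 10 such markers was above the 95th percentile of the negative controls, so these markers do not bear out a midbrain dopaminergic identity. Among 8 astrocyte markers, Gfap (at least 18.78), Aqp4, Slc1a3, Slc1a2, S100b and Sox9 were above that percentile in every MN array. Aldh1l1 was above it in 1 MN array and Gja1 in none. Gfap was above it in 25 arrays, of which 9 were MN arrays, so its signal was not particular to this stage.

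Eif2ak2, the kinase PKR that stops translation when it senses double-stranded RNA, was above the 95th percentile of the array's negative controls in all 29 arrays, at 8.75 to 11.23. Another 17 ISGs were above it in at least 1 array. The other 16 never were: Isg15, Irf7, Irf1, Oasl2, Oas1a, Oas2, Rsad2, Mx1, Mx2, Dhx58, Ifi35, Gbp3, Parp9, Parp14, Dtx3l and Rtp4. Changes of these 16 are between signals within the range of the negative controls and may understate the change in RNA. For other ISGs the same holds of 1 side of a comparison, or of both. At the MN stage, 8 of the 27 ISGs called between the untreated lines were below the 95th percentile in every WT array but not in every BERKO array, and 12 were below it in all arrays of both. From mDPC to MN, 16 of 31 called ISGs in BERKO and 7 of 24 in WT were below it in every mDPC array and not in every MN array. Another 14 of the 31 in BERKO and 16 of the 24 in WT were below it in all arrays of both stages. For such a gene the fitted change is between measured signals. A fold given as "at least" is a bound, in which each array of the dim group stands at its 95th percentile of negative controls. The bound was below 0 log2 units, so that no fold is given, for Usp18 and Xaf1 between the untreated lines at MN. From mDPC to MN it was below 0 for Irf9, Usp18 and Xaf1 in BERKO and for Ifit2, Stat2, Irgm1 and Cmpk2 in WT. The number of ISGs above the controls in every array of a group was 5 in each mESC group, 2 in each NPC group and 1 in each mDPC group. At the MN stage it was 13 in BERKO with LY3201, 15 in untreated BERKO, 10 in WT with LY3201 and 7 in untreated WT. Fewer cells with a gene on and less RNA per cell cannot be told apart in these bulk samples.

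**Figure D1:**
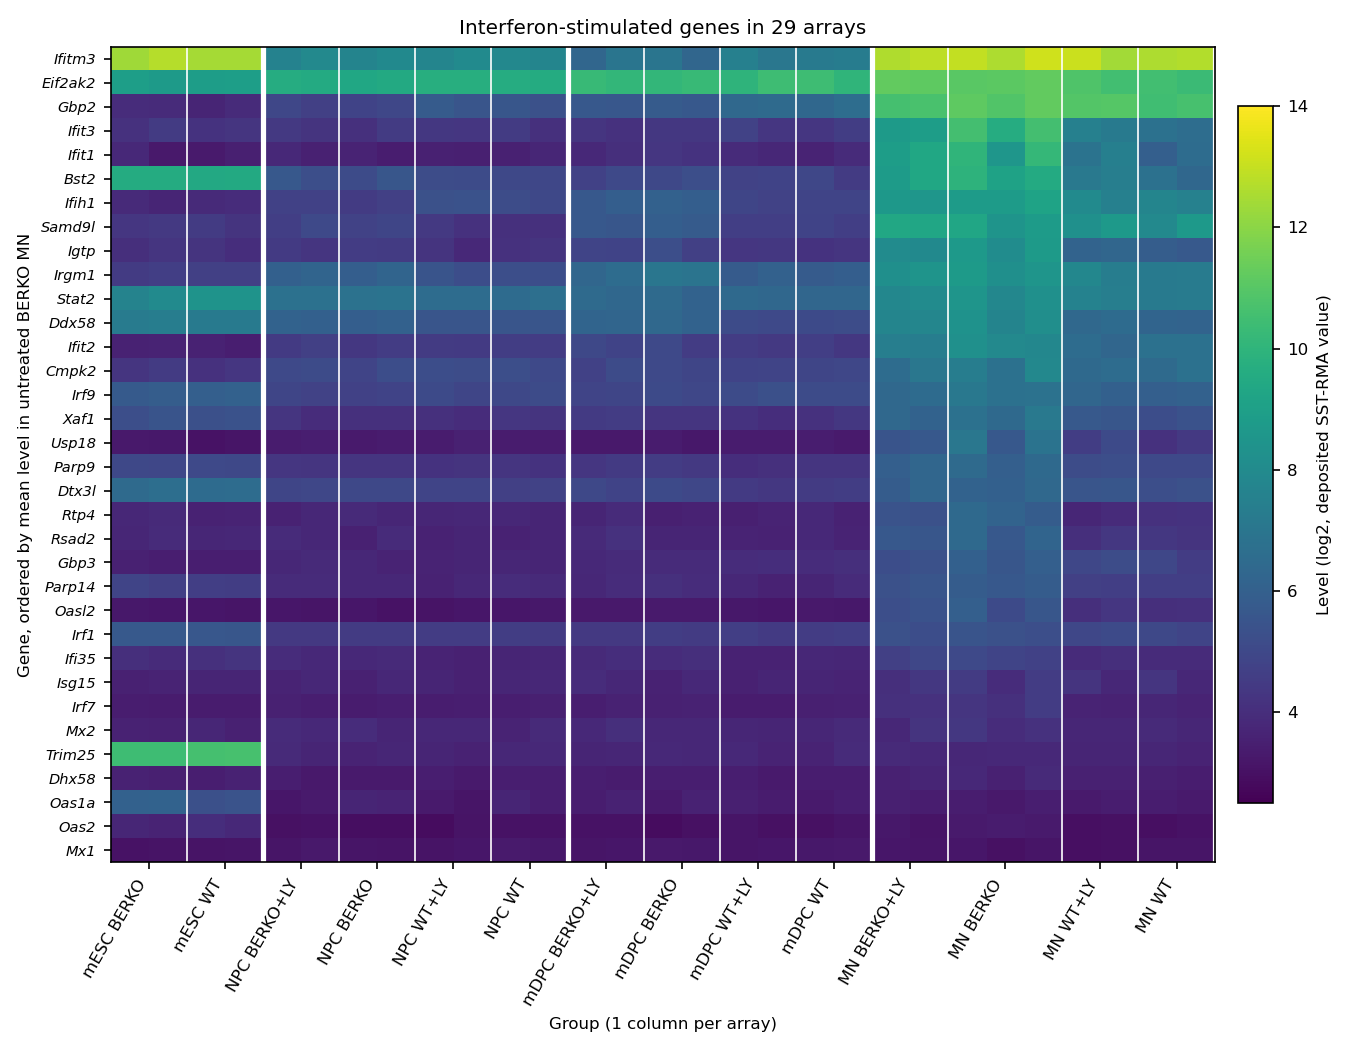
Level of the 34 ISGs (rows, ordered by mean level in untreated BERKO MN) in each of the 29 arrays (columns, by stage), as deposited log2 values on the colour scale. Most rows are brightest in MN, above all in BERKO MN, while Trim25 and Oas1a are brightest in mESC and Eif2ak2 is bright throughout.

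In mESC 5 ISGs were above the 95th percentile of negative controls in every array of both lines (Ifitm3, Trim25, Bst2, Stat2 and Eif2ak2), and 4 of them, all but Eif2ak2, fell at the first step. Ifitm3, a membrane protein that blocks viral entry, was 12.36 and 12.70 in BERKO mESC and 12.45 and 12.44 in WT mESC. Trim25, a ubiquitin ligase that activates RIG-I, was 10.45 and 10.42 in BERKO mESC and 10.59 and 10.64 in WT mESC. Bst2, tetherin, which holds budding virions at the cell surface, was 9.57 and 9.59 in BERKO mESC and 9.44 and 9.50 in WT mESC. In NPC none of Ifitm3, Trim25 and Bst2 exceeded 8.02 in any array.

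From mESC to NPC, 6 ISGs rose and 13 fell in BERKO, where 27.7% of all genes tested rose and 35.9% fell (63.5% in either direction). In WT, 6 rose and 14 fell, against 27.9% and 35% of all genes (62.9% in either direction). The 6 that rose were the same in both genotypes (Cmpk2, Eif2ak2, Gbp2, Ifih1, Ifit2 and Irgm1), and 13 fell in both. Trim25 changed by -6.74 ± 0.09 in BERKO and -6.81 ± 0.09 in WT (limma adjusted p = 6.53e-22 and 5.67e-22), at least 8.54-fold and 8.92-fold lower in NPC. Ifitm3 changed by -4.71 ± 0.26 in BERKO and -4.66 ± 0.26 in WT. Bst2 changed by -4.24 ± 0.24 in BERKO and -4.49 ± 0.24 in WT, at least 4.72-fold and 4.04-fold lower in NPC. Oas1a, a synthetase of the 2-5A second messenger that activates RNase L, changed by -2.43 ± 0.11 in BERKO and -1.78 ± 0.11 in WT. Stat2, Irf9, Irf1 by its brighter cluster, Ddx58, Xaf1 and the neighbours Parp14, Dtx3l and Parp9 also fell in both lines, by 0.70 to 1.82 log2 units. The other cluster of Irf1 differed by 0.00043 in BERKO and -0.036 in WT and was not called. Shares this close to those of all genes say little about the ISGs as a group, and their median change was -0.09 in BERKO and -0.07 in WT, and over all genes tested -0.10 in BERKO and -0.04 in WT.

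From NPC to mDPC few ISGs moved. In BERKO, 5 rose and 2 fell, against 16.5% and 18.9% of all genes (35.4% in either direction). In WT, 3 rose and 1 fell, against 14.6% and 15.8% of all genes (30.4% in either direction). Gbp2, a guanylate-binding protein, rose by 0.87 ± 0.14 in BERKO and 1.00 ± 0.14 in WT. Eif2ak2 rose by 0.76 ± 0.14 in BERKO and 0.63 ± 0.14 in WT. Irgm1, an immunity-related GTPase, rose by 0.92 ± 0.16 in BERKO and 0.62 ± 0.16 in WT. Ifih1 and Samd9l were called in BERKO (1.42 ± 0.15 and 1.02 ± 0.24), where Stat2 and Ifitm3 fell by 0.55 ± 0.16 and 1.17 ± 0.26, and Ddx58 fell by 0.42 ± 0.14 in WT. The WT count was 2 without either of the 2 WT mDPC arrays. The count in BERKO was 17 rising and 1 falling when each array was centred on its negative controls, a scaling that raised the median of all genes by 0.18 in this step.

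From mDPC to MN most ISGs rose. In untreated BERKO cells 31 of 33 rose and 0 fell, where 20.1% of all genes rose and 30.8% fell (50.9% in either direction). In untreated WT cells 24 of 33 rose and 0 fell, against 18% and 24% of all genes (42% in either direction). The median change over the 33 ISGs was 1.92 in BERKO and 0.83 in WT, and over all genes tested -0.14 in BERKO and -0.10 in WT. All 24 ISGs called in WT were among the 31 called in BERKO.

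Ifit3 is an RNA-binding antiviral protein. It was 10.58, 9.63 and 10.58 in BERKO MN, against 4.38 and 4.35 in BERKO mDPC, a change of 5.90 ± 0.22 (limma adjusted p = 3.49e-14) and at least 8.53-fold. It was 6.78 and 6.62 in WT MN, against 4.33 and 4.61 in WT mDPC, a change of 2.23 ± 0.25 (adjusted p = 3.69e-07). In WT both stages were below the 95th percentile of negative controls. MN and mDPC arrays did not overlap in either line. A near-identical copy, Ifit3b, has a cluster of its own and was looked at after the values of Ifit3 were seen. It changed by 5.24 ± 0.33 in BERKO and 3.36 ± 0.36 in WT, and the signals of the 2 genes may be mixed.

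Ifit1, which binds viral RNA that lacks the cap methylation of host messenger RNA, was 10.03, 8.55 and 10.15 in BERKO MN, against 4.31 and 4.17 in BERKO mDPC. It was 5.97 and 6.55 in WT MN, against 3.64 and 3.92 in WT mDPC. The changes were 5.34 ± 0.33 in BERKO, at least 5.29-fold, and 2.48 ± 0.36 in WT, where both stages were below the 95th percentile of negative controls. Ifit2, of the same family, changed by 3.22 ± 0.14 in BERKO and 2.31 ± 0.15 in WT.

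Membrane proteins and GTPases on the list rose too. Ifitm3 was 12.94, 12.56 and 13.16 in BERKO MN, against 6.99 and 6.32 in BERKO mDPC. It was 12.58 and 12.66 in WT MN, against 7.20 and 7.33 in WT mDPC. Ifitm3 so returned to about its mESC level at the MN stage, with changes of 6.24 ± 0.24 in BERKO, at least 52.6-fold, and 5.35 ± 0.26 in WT. Gbp2 was 11.16, 10.86 and 11.24 in BERKO MN, against 5.82 and 5.68 in BERKO mDPC. It was 10.49 and 10.65 in WT MN, against 6.33 and 6.62 in WT mDPC. Its changes were 5.34 ± 0.13 in BERKO and 4.10 ± 0.14 in WT, at least 15.1-fold and 9.84-fold. Bst2 changed by 4.39 ± 0.22 in BERKO and 1.84 ± 0.24 in WT. Igtp, another immunity-related GTPase, changed by 3.54 ± 0.18 in BERKO and 1.57 ± 0.19 in WT.

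Of the RNA sensors, Ifih1 changed by 2.94 ± 0.13 in BERKO and 2.80 ± 0.15 in WT, and Ddx58 by 1.83 ± 0.13 in BERKO and 1.06 ± 0.14 in WT. Dhx58 was at 3.30 to 3.85 over all arrays, where the medians of the negative controls were 3.75 to 4.25, and was called in BERKO (0.27 ± 0.08) but not in WT. Of the components of ISGF3 on the list, Stat2 changed by 1.92 ± 0.15 in BERKO and 0.93 ± 0.16 in WT, and Irf9 by 1.87 ± 0.10 in BERKO and 0.89 ± 0.11 in WT. Usp18, which removes ISG15 from proteins and damps signalling at the type I receptor, changed by 3.25 ± 0.25 in BERKO and 0.89 ± 0.28 in WT. The bound for Usp18 in BERKO was -0.62 log2 units. Besides Dhx58, the ISGs that passed the test in BERKO and not in WT were Eif2ak2, Ifi35, Irf7, Isg15, Mx2 and Oas2, 7 in all. Irf1, an activator of interferon-response genes, rose by its brighter cluster (0.80 ± 0.08 in BERKO and 0.32 ± 0.09 in WT), but its other cluster differed by -0.041 in BERKO and -0.017 in WT and was not called. Trim25 and Oas1a, which were among the ISGs that had fallen after mESC, were not called in either line, and Trim25 stayed at 3.60 to 3.92 outside mESC.

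The step was larger in BERKO for many ISGs by a test of the difference itself. For 22 of 33 the BERKO change exceeded the WT change and for 0 the WT change exceeded the BERKO change (adjusted p under 0.05), against 7.31% and 5.15% of all genes (12.5% in either direction). The median difference was 0.89 over the ISGs and -0.02 over all genes tested. The difference was 3.66 ± 0.33 for Ifit3 (adjusted p = 3.19e-07), 2.86 ± 0.49 for Ifit1, 2.56 ± 0.33 for Bst2, 2.36 ± 0.38 for Usp18 and 2.14 ± 0.19 for Rtp4. It was not called for Ifitm3 (0.89 ± 0.35, adjusted p = 0.116), Ifih1 (0.14 ± 0.20), Irgm1 (0.13 ± 0.22) or Samd9l (-0.62 ± 0.32), a growth-restricting antiviral factor that changed by 2.99 ± 0.22 in BERKO and 3.61 ± 0.24 in WT.

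**Figure D2:**
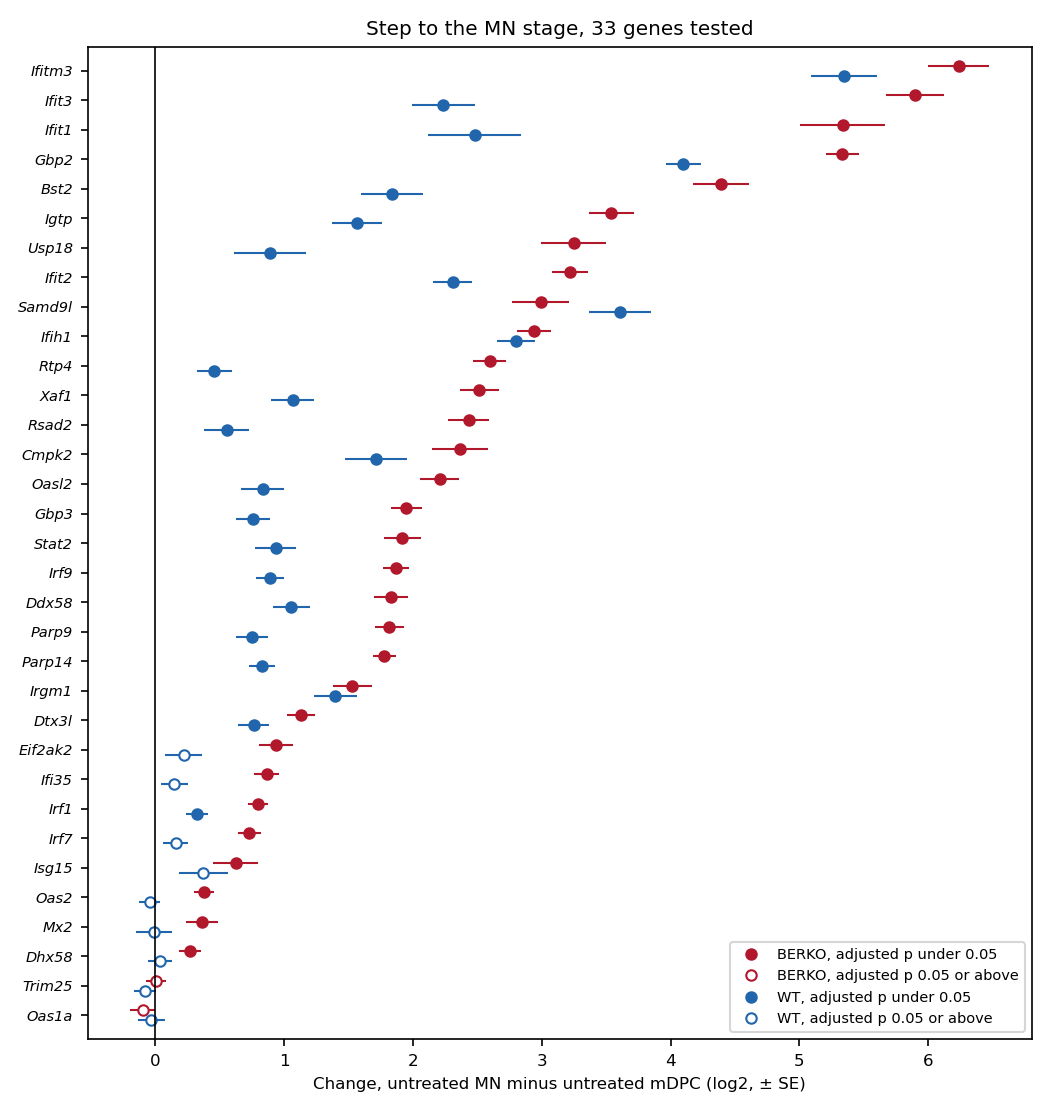
Change of each of the 33 tested ISGs from mDPC to MN in untreated cells (log2 units, ± SE), in BERKO (red, upper point) and WT (blue, lower point), ordered by the BERKO change. Filled points have an adjusted p under 0.05, which holds for 31 ISGs in BERKO and 24 in WT, and the red points lie right of the blue ones for most genes but not for Samd9l.

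ISGs with an ISRE-type match in the promoter window were set beside those without one as a description. The median change from mDPC to MN in BERKO was 2.43 over the 15 ISGs with a match, with a range of -0.10 to 6.24, and 1.87 over the 11 without, with a range of 0.01 to 3.22. Isg15, with 3 matches, changed by 0.62 ± 0.17 and Oas1a, with 2, by -0.10 ± 0.10, while Ifit2, with 0, changed by 3.22 ± 0.14. Isg15 and Oas1a were not above the 95th percentile of negative controls in any array. The range without a match lay within the range with one.

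The question of whether the lines differ was then taken stage by stage, and most of the called ISGs were called at the MN stage. In untreated MN, 27 of 33 ISGs were higher in BERKO than in WT and 0 were lower, against 13.5% of all genes higher and 7.31% lower (20.8% in either direction). The median difference was 0.97 over the ISGs and 0.01 over all genes. Groups did not overlap for 26 of the 27, the exception being Cmpk2, a mitochondrial nucleotide kinase, and 13.3% of all genes were higher without overlap.

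Ifit3, with the values given above, was 3.56 ± 0.22 higher in BERKO MN than in WT MN, at least 10.6-fold (adjusted p = 7.06e-10). Ifit1 was 3.32 ± 0.33 higher, at least 6.55-fold. Bst2 was 9.93, 9.11 and 9.52 in BERKO MN, against 6.78 and 6.35 in WT MN, a difference of 2.95 ± 0.22 and at least 6.29-fold. Igtp was 8.73, 8.08 and 8.76 in BERKO MN, against 5.90 and 5.71 in WT MN, a difference of 2.72 ± 0.18 and at least 3.15-fold. For all 4 genes the lowest BERKO array was at least 1 unit above the highest WT array.

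The next 4 ISGs by size of the difference belong to other roles. Usp18 was 7.07, 5.68 and 6.89 in BERKO MN, against 4.14 and 4.40 in WT MN, a difference of 2.28 ± 0.25. Its bound was -0.32 log2 units, because the BERKO signals themselves lay near the 95th percentile of negative controls. Rtp4, a receptor transporter protein, was 6.45, 6.17 and 5.85 in BERKO MN, against 4.16 and 4.18 in WT MN, a difference of 1.98 ± 0.13. Ddx58 was 8.38, 7.71 and 8.18 in BERKO MN, against 6.20 and 6.15 in WT MN, a difference of 1.91 ± 0.13 and at least 2.34-fold. Rsad2, viperin, which makes a chain-terminating nucleotide, was 6.43, 5.68 and 6.20 in BERKO MN, against 4.35 and 4.24 in WT MN, a difference of 1.81 ± 0.16. None of these groups overlapped, although Rtp4 and Rsad2 were below the 95th percentile of the negative controls in every array. The second of the 3 untreated BERKO arrays was the lowest of the 3 for 26 of the 33 ISGs.

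The remaining 19 ISGs called in untreated MN differed by 0.28 (Dhx58) to 1.49 (Xaf1). They include Stat2 (0.97 ± 0.15), Irf9 (0.89 ± 0.10), Eif2ak2 (0.69 ± 0.13) and Gbp2 (0.52 ± 0.13). The 6 tested ISGs that were not called were Ifitm3 (0.27 ± 0.24), Samd9l (0.54 ± 0.22), Mx2 (0.35 ± 0.13), Isg15 (0.30 ± 0.17), Trim25 (0.10 ± 0.08) and Oas1a (0.01 ± 0.10). For Ifitm3 the BERKO and WT arrays overlapped.

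With LY3201 in both lines, 20 of 33 ISGs were higher in BERKO MN than in WT MN and 0 were lower, against 9.01% and 10.6% of all genes (19.6% in either direction). Of these 20, 19 were also called in untreated MN and the other was Samd9l (0.84 ± 0.24). Ifit3 was 8.78 and 8.90 in BERKO MN with LY3201, against 7.49 and 7.23 in WT MN with LY3201, a difference of 1.48 ± 0.25. Ifit1 differed by 1.95 ± 0.36, Bst2 by 1.82 ± 0.24 and Igtp by 1.79 ± 0.19. The groups stayed apart for all 4, as for 29 of the 33 ISGs, and the share of all genes was not computed here.

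Before the MN stage fewer ISGs were called between the lines. In untreated mDPC, 6 ISGs were higher in BERKO and 1 was lower, against 8.51% and 5.32% of all genes (13.8% in either direction). Ifih1 was 6.06 and 5.91 in BERKO mDPC, against 4.84 and 4.84 in WT mDPC, a difference of 1.15 ± 0.15 (adjusted p = 1.25e-05). Ddx58 was 6.40 and 6.12 in BERKO mDPC, against 5.08 and 5.16 in WT mDPC, a difference of 1.14 ± 0.14. Both RNA sensors were thus separated by genotype before the MN stage, but in signals within the range of the negative controls. The same holds of all 7 ISGs called at mDPC, which were below the 95th percentile in every array of both lines. Samd9l (1.16 ± 0.24), Irgm1 (1.11 ± 0.16), Igtp (0.74 ± 0.19) and Dtx3l (0.49 ± 0.12) were also higher in BERKO mDPC, and Gbp2 was lower (-0.72 ± 0.14). Ifit3, Ifit1 and Bst2, which differed most at MN, were at most 5.28 in BERKO mDPC and were not called.

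In untreated NPC, 3 ISGs were higher in BERKO and 2 were lower, against 10.6% and 5.08% of all genes (15.7% in either direction). Irgm1 (0.81 ± 0.16), Samd9l (0.75 ± 0.24) and Ddx58 (0.45 ± 0.14) were higher, and Gbp2 (-0.59 ± 0.14) and Ifih1 (-0.51 ± 0.15) were lower. All 5 were below the 95th percentile of negative controls in every array of both lines. Counts this close to the shares of all genes say little about the ISGs as a group. Ifih1 was lower in BERKO than in WT at NPC and higher at mDPC and MN, with only its MN signals above the 95th percentile. With 1 array left out, 1 ISG was called without the first NPC array of either line and 3 without the second of either line. In mESC, Oas1a was higher in BERKO (0.74 ± 0.11) and Stat2 was lower (-0.59 ± 0.16), against 1.68% of all genes higher and 2.53% lower (4.21% in either direction). The call of Stat2 was lost without either WT array or the first BERKO array, and also without any of several arrays of other stages. Oas1a was 6.07 and 6.13 in BERKO mESC, against 5.30 and 5.42 in WT mESC, and it was not called at later stages, where it stayed between 3.13 and 3.70.

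**Figure D3:**
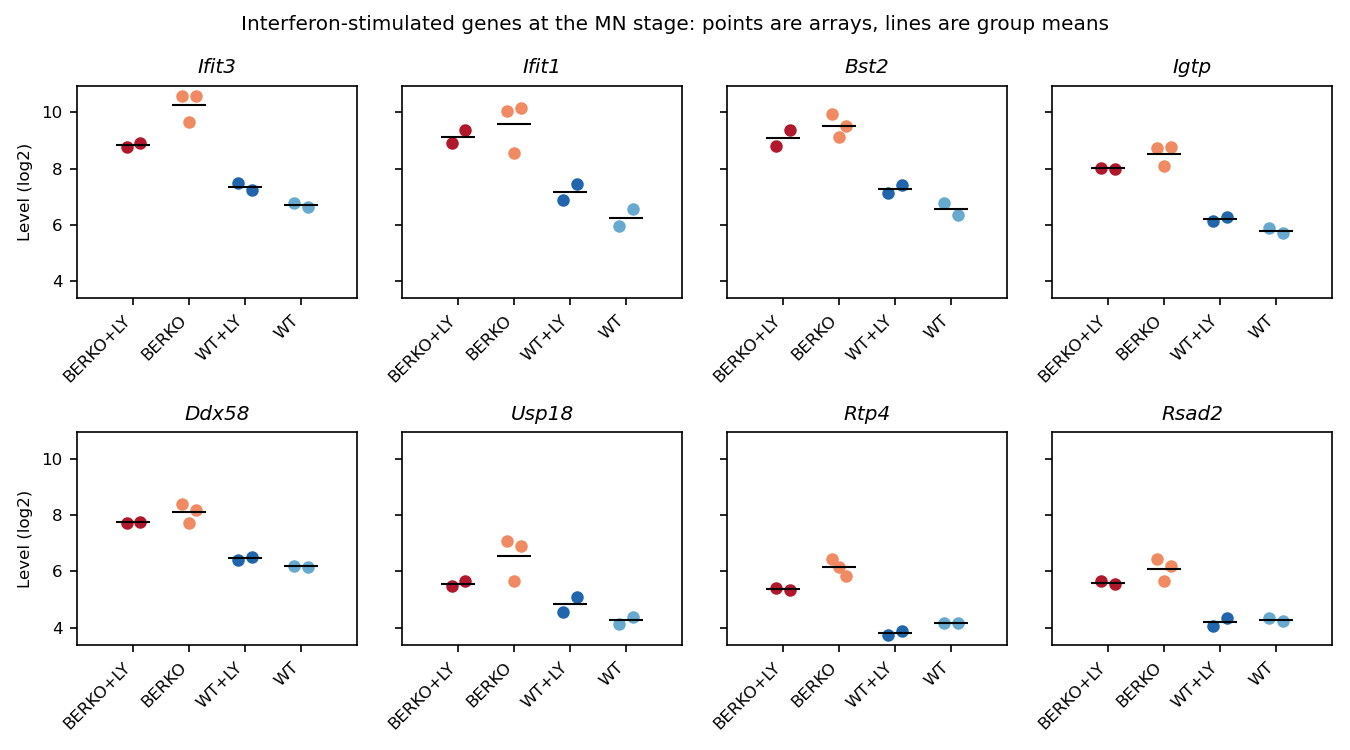
Levels (log2) of the 8 ISGs with the largest difference between untreated BERKO and WT MN, with 1 point per array and a line at the mean of each MN group. In each panel the BERKO groups on the left lie above the WT groups on the right, and for Ifit3 the untreated BERKO arrays (9.63 to 10.58) lie above those with LY3201 (8.78 and 8.90).

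LY3201 at the MN stage was followed within each line. The comparison within BERKO and that between untreated lines share the untreated BERKO arrays, so their values are given side by side without relating them. In BERKO MN, 0 ISGs rose and 3 fell with LY3201, where 0.0453% of all genes rose and 0.299% fell (0.344% in either direction). The median change was -0.27 over the ISGs and -0.03 over all genes. The change was below 0 for 29 of the 33 ISGs, against 58.2% of all genes.

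Ifit3 was 8.78 and 8.90 in BERKO MN with LY3201, against 10.58, 9.63 and 10.58 in untreated BERKO MN, a change of -1.42 ± 0.22 (limma adjusted p = 0.0107). Rtp4 was 5.42 and 5.35 with LY3201, against 6.45, 6.17 and 5.85 untreated, a change of -0.77 ± 0.13 (adjusted p = 0.0143). Gbp3, a guanylate-binding protein, was 5.21 and 5.36 with LY3201, against 6.03, 5.60 and 5.98 untreated, a change of -0.58 ± 0.12 (adjusted p = 0.0453). The treated and untreated arrays did not overlap for any of the 3. This held for 14 of the 33 ISGs in all, and its share over all genes was not computed. All 3 calls were lost when either array of BERKO MN with LY3201 was left out, 1 call was left without untreated BERKO array 3, and 14 ISGs fell when the second untreated BERKO array was left out.

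Other ISGs had changes of like size that did not pass the test. Usp18 was 5.48 and 5.66 in BERKO MN with LY3201, against 7.07, 5.68 and 6.89 untreated, and its change of -0.98 ± 0.25 had an adjusted p of 0.102. Ifit2 (-0.62 ± 0.14, adjusted p = 0.0629) and Irf9 (-0.43 ± 0.10, adjusted p = 0.0654) had the lowest p after the 3 called genes. In all, 16 ISGs had an unadjusted p under 0.05 in this comparison, against 11.3% of all genes. The only one of these 16 with a change above 0 was Samd9l, at 9.38 and 9.31 with LY3201, against 9.30, 8.44 and 8.83 untreated (0.49 ± 0.22, adjusted p = 0.399). For Ifit3b, the copy of Ifit3, the difference was -0.61 ± 0.33 and was not called (adjusted p = 0.506).

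In WT MN, LY3201 changed 0 of 33 ISGs by the limma test (2, Ifit1 and Usp18, without the second untreated BERKO array, which enters the estimate of spread), where 1.55% of all genes rose and 0.272% fell (1.83% in either direction). The lowest adjusted p was 0.159, that of Bst2, and 8 ISGs had an unadjusted p under 0.05, 6 of them higher, against 14.1% of all genes. The median change was 0.12 over the ISGs and 0.02 over all genes, and the change was above 0 for 24 of 33, against 55.3% of all genes. Ifit1 was 6.90 and 7.47 in WT MN with LY3201, against 5.97 and 6.55 in untreated WT MN, with a change of 0.92 ± 0.36 (adjusted p = 0.233). Bst2 was 7.13 and 7.41 with LY3201, against 6.78 and 6.35 untreated, with a change of 0.70 ± 0.24. Ifit3 was 7.49 and 7.23 with LY3201, against 6.78 and 6.62 untreated, with a change of 0.66 ± 0.25 (adjusted p = 0.205). Treated arrays were above untreated ones in these 3 genes, and in 15 of the 33 ISGs in all, of which 0 were called. With 2 arrays a side such separation says little by itself, and its share over all genes was not computed. Ifit2 (-0.38 ± 0.15) and Rtp4 (-0.35 ± 0.14) had changes below 0.

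The difference of the LY3201 changes between the lines was itself tested. It was below 0, that is, lower in BERKO, for 2 ISGs and above 0 for 0, against 0.594% and 0.0363% of all genes (0.63% in either direction). It was -2.08 ± 0.33 for Ifit3 (adjusted p = 0.0125) and -0.90 ± 0.18 for Gbp3 (adjusted p = 0.0305). For Usp18 it was -1.55 ± 0.38 (adjusted p = 0.0656), for Ifit1 -1.37 ± 0.49 and for Bst2 -1.13 ± 0.33. Without the second untreated BERKO array 10 ISGs were called, without the first array of BERKO MN with LY3201 0 were, and 1 was without untreated BERKO array 1 or 3, the second BERKO array with LY3201 or the second WT array of either kind.

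**Figure D4:**
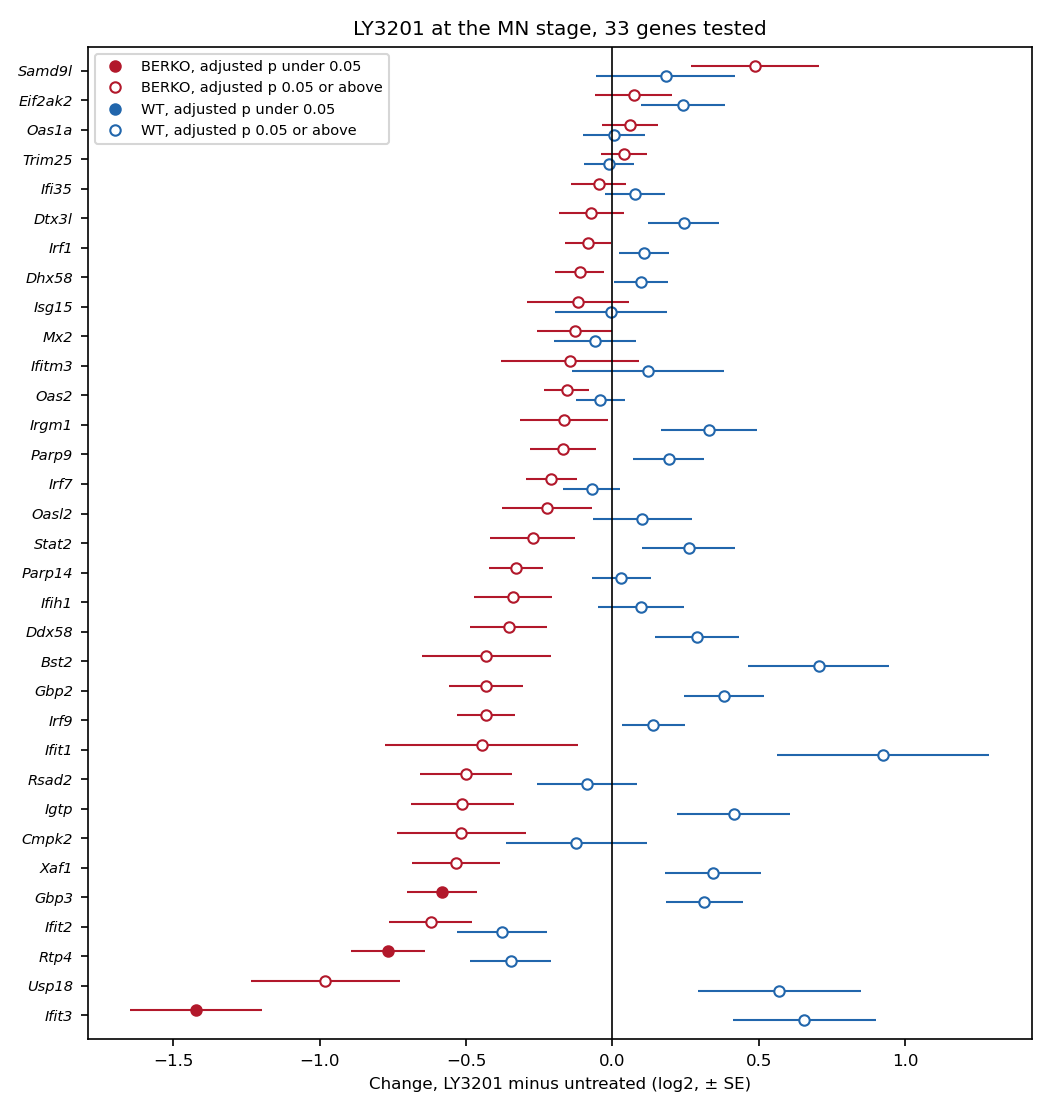
Change of each of the 33 tested ISGs with LY3201 at the MN stage (log2 units, ± SE), in BERKO (red, upper point) and WT (blue, lower point), ordered by the BERKO change. Filled points have an adjusted p under 0.05 (Ifit3, Rtp4 and Gbp3 in BERKO), 29 red points lie left of 0 and 24 blue points lie right of it.

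At the earlier stages LY3201 changed 0 of 33 ISGs in each of the 4 comparisons by the limma test. The share of all genes called was 0% in BERKO NPC, 0.00453% in WT NPC, 0.113% in BERKO mDPC and 0.0635% in WT mDPC, so these comparisons called few genes of any kind. With an unadjusted p under 0.05 there was 1 ISG in BERKO NPC, 1 in WT NPC, 1 in BERKO mDPC and 0 in WT mDPC, against 8.35%, 9.99%, 8.42% and 12.7% of all genes. The lowest adjusted p of any ISG was 0.205, in WT NPC. The mean level over the 34 ISGs was 4.61 and 4.69 in BERKO mDPC with LY3201, against 4.74 and 4.66 in untreated BERKO mDPC.

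The other genes of the pathway were read from lists made for this purpose. None of the 17 interferon genes measured (Ifnb1, Ifng, Ifnl2, Ifnl3 and 13 others of type I) was above the 95th percentile of negative controls in any array, and Ifnb1 lay between 3.44 and 4.08 in MN. Of the 9 interferon genes tested, 0 were called between untreated BERKO and WT MN by limma, and 0 had an unadjusted p under 0.05. Of 16 receptor and signalling genes tested, 5 were higher and 1 was lower in untreated BERKO MN, against 13.5% and 7.31% of all genes. Il10rb, a shared subunit of the type III receptor, was higher by 0.74 ± 0.10, but was not above the 95th percentile of negative controls in any array. Ifnar2 was higher by 0.58 ± 0.12. Ifngr1, the ligand-binding chain of the interferon gamma receptor, was lower by 1.20 ± 0.10, at 9.06 in BERKO MN and 10.25 in WT MN on average.

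Of 9 nucleic acid sensors and adaptors tested beyond those on the ISG list, 5 were higher and 0 lower in untreated BERKO MN, against 13.5% and 7.31% of all genes. Tlr3, an endosomal receptor for double-stranded RNA, was 11.12, 11.40 and 11.36 in BERKO MN, against 9.10 and 8.82 in WT MN, a difference of 2.34 ± 0.16 (adjusted p = 2.03e-09). Tlr3 arrays were apart earlier too, at 5.95 and 6.27 in BERKO NPC, against 4.86 and 4.63 in WT NPC. At mDPC Tlr3 was 2.66 ± 0.17 higher in BERKO. The NPC signals of both lines and the WT mDPC signals were below the 95th percentile of negative controls. Mavs, the adaptor of RIG-I and MDA5, was higher by 0.80 ± 0.11 in untreated BERKO MN. Of 11 negative regulators, 3 were higher and 0 lower by the same comparison, among them Trim30a, which restrains inflammatory signalling, by 1.30 ± 0.13. Trim30a was not above the 95th percentile of negative controls in any array.

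MHC class I presentation, which interferons also raise, moved in the same direction as the ISGs at MN. Of its 10 genes, 9 were higher and 0 lower in untreated BERKO MN than in WT MN, against 13.5% and 7.31% of all genes. H2-K1, a classical class I heavy chain, was 7.35, 7.25 and 7.46 in BERKO MN, against 5.62 and 5.79 in WT MN, a difference of 1.65 ± 0.08. H2-D1 was higher by 1.24 ± 0.09 and B2m, the light chain, by 0.99 ± 0.15. Some of these genes were apart before MN. B2m was 15.74 and 15.32 in BERKO mDPC, against 14.07 and 14.49 in WT mDPC. Erap1 was 8.15 and 8.17 in BERKO mDPC, against 7.75 and 7.66 in WT mDPC. Tapbp and Psmb9 were not higher in BERKO mDPC. H2-K1 and H2-D1 were below the 95th percentile of negative controls in WT MN. Tap1, Tap2, Psmb8, Psmb9 and Psmb10 were not above it in any array. With LY3201 in BERKO MN, Tapbp, which loads peptides onto class I molecules, fell by 0.54 ± 0.11 (adjusted p = 0.0458) and the other 9 were not called. Of all genes 0.299% fell in that comparison. Whether the call of Tapbp holds with 1 array left out was not examined.

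**Figure D5:**
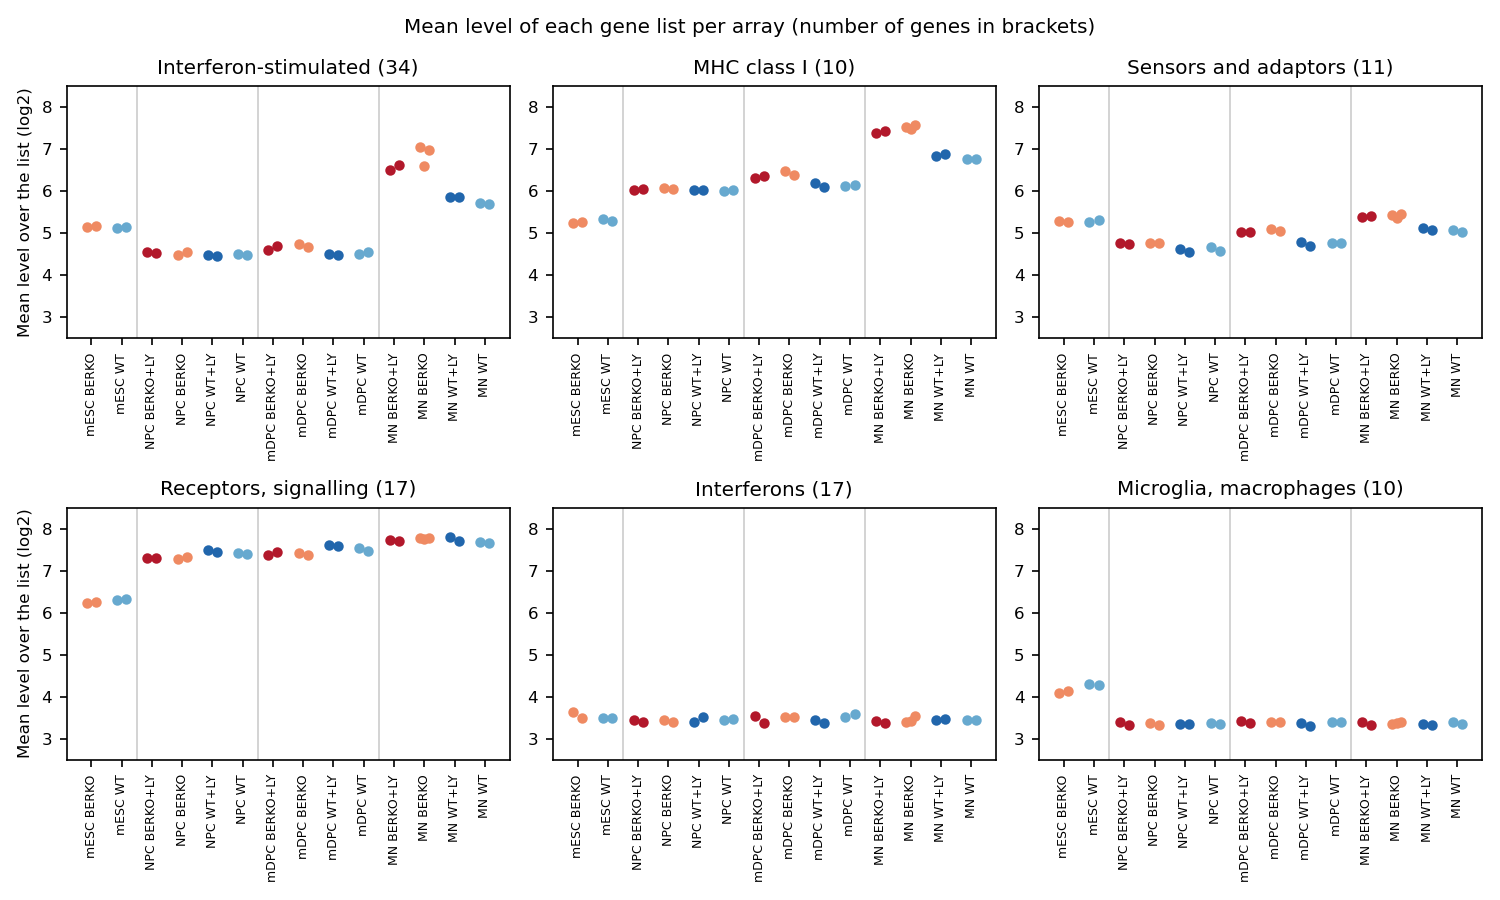
Mean level (log2) of each of 6 gene lists in every array, by group, with 1 point per array. The ISGs and MHC class I genes are highest in the MN groups and higher in BERKO MN than in WT MN, while interferon genes (3.37 to 3.55 in MN) and microglia and macrophage markers (3.31 to 3.40 in MN) stay near the bottom of the scale.

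Markers of cell types that the cultures could hold differed between the lines too, and their part in the ISG differences was not tested. In untreated MN, where 13.5% of all genes were higher and 7.31% lower, 8 of 8 neuronal markers were lower in BERKO, with a mean over the list of 7.11 to 7.32 in BERKO arrays and 7.79 to 9.77 in WT arrays. The 2 WT arrays were thus far apart, and the size of this difference depends on which is taken. Rbfox3 was above the 95th percentile of negative controls in no MN array, Nefl in 1 and Snap25 and Syt1 in 2 each. Of 8 astrocyte markers, 5 were higher and 1 was lower, with a mean of 11.38 to 11.41 in BERKO and 10.89 to 11.04 in WT. Of 5 ependymal markers, 3 were higher and 1 was lower, with a mean of 7.12 to 7.74 in BERKO and at most 6.0 in WT. All 7 fibroblast and mesenchyme markers were lower in BERKO (4.71 to 4.94, against 7.12 to 7.19 in WT), and all 5 proliferation markers were higher (9.31 to 9.47, against 8.40 to 8.70 in WT). Of these, Col1a2, Lum, Pdgfrb and Aurkb were not above the 95th percentile of negative controls in any MN array, nor was the ependymal marker Dnah11. Of oligodendrocyte markers 1 was higher and 3 were lower of 6, and of pluripotency markers 0 of 6 were called by limma, with 0 at an unadjusted p under 0.05. With LY3201 in BERKO MN, 1 of 5 ependymal markers fell, where 0.0453% of all genes rose and 0.299% fell. In WT MN with LY3201, 2 of 5 proliferation markers and 1 of 6 pluripotency markers rose, against 1.55% of all genes. There 1 of 10 dopaminergic markers fell, against 0.272% of all genes. No dopaminergic marker, and of the pluripotency markers only Sox2, was above the 95th percentile of negative controls in any MN array.

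Microglia and macrophages, the immune cells of the brain that respond strongly to interferon, had no marker above the 95th percentile of negative controls at the MN stage. None of their 10 markers exceeded it in any MN array, with Ptprc, Aif1, Csf1r, Tyrobp and Itgam at 2.57 to 3.34 and the brightest, Cd68, at 4.72 to 5.20. Low RNA and poor detection cannot be told apart for these markers. The mean over the list was 3.35 to 3.39 in untreated BERKO MN and 3.34 to 3.40 in WT MN. Of the 4 that passed the filter on dim genes, 0 were called by limma between the lines and 0 had an unadjusted p under 0.05.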

How the data were processed

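RNA (150 ng per sample) from 29 samples was hybridised to Affymetrix mouse arrays that summarise transcript clusters. The authors deposited log2 values, which the labels call SST-RMA values, made with Affymetrix Expression Console 1.4 (the submitters' processing notes name RMA). The build behind the clusters is not given in the sources used here. Of 65956 clusters, 30604 carried 1 gene symbol in the platform annotation, 2146 several and 33206 none, and 827 symbols were updated through the gene ID. Genes brighter than the array's median cluster on 2 or more arrays (22063) were fitted with limma 3.58.1 in R 4.3.3, with a mean per group over all arrays (15 residual degrees of freedom). Benjamini-Hochberg adjustment ran over all 22063 genes, with a threshold of 0.05. The fit was tested on simulated data.

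The members and the other gene lists were chosen with earlier results of these data known. Any ISG could be named. Values in every array are given for up to 8 called ISGs per comparison, by size of change among those whose groups do not overlap, and for those called in 1 line only with LY3201. The number of arrays limits the precision. Alternatives were the filter, the scaling, the prior variance, the arrays fitted and the cluster chosen.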

Additional observations from a re-analysis of the deposited data

Results flagged for a closer look

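The step from mDPC to MN differed between the lines, by a test of the difference itself, for 22 ISGs, each with the larger change in BERKO. For the Ifit genes the BERKO change exceeded the WT change by 3.66 log2 units (Ifit3), 2.86 (Ifit1) and 0.91 (Ifit2). For other antiviral effectors the excess was 2.56 for Bst2, 1.88 for Rsad2, 1.37 for Oasl2, 0.42 for Oas2 and 0.72 for Eif2ak2. For the GTPases it was 1.97 for Igtp, 1.24 for Gbp2 and 1.19 for Gbp3. The transcription factors differed by 0.98 (Stat2), 0.98 (Irf9), 0.57 (Irf7) and 0.47 (Irf1, whose other cluster gave -0.023 and was not called). The excess was 2.36 for Usp18, 2.14 for Rtp4, 1.45 for Xaf1, 0.77 for Ddx58 and 0.72 for Ifi35. It was 1.07 for Parp9 and 0.95 for its neighbour Parp14.

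The LY3201 change at the MN stage differed between the lines for 2 ISGs, again by a test of the difference. The BERKO change minus the WT change was -2.08 for Ifit3 and -0.90 for Gbp3.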

How the results depend on the processing

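No paired analysis was possible because the groups compared share fewer than 2 numbers in their titles: the only number that arrays of different groups share is 10, in 1 array each of BERKO and WT MN with LY3201. Alternatives were a stricter filter or none, quantile scaling, centring on negative controls, another prior variance, the compared groups alone, averaging arrays whose titles share a number, and each array left out. Of the counts of called ISGs under them, 732 stayed within 1.5 times the value in the report and 45 did not. Most alternatives leave out 1 array, often of groups outside the comparison, which then acts only through the filter and the estimate of spread. A count that stayed therefore says little by itself. For LY3201 in BERKO MN, against 3 calls, 5 came from the stricter filter, 5 from centring on negative controls, 0 from the compared groups alone and 0 to 14 with 1 array left out. Ifit3 kept its call in 33 of 37 alternatives, Rtp4 in 34 and Gbp3 in 9. For LY3201 in WT MN, 0 to 2 were called with 1 array left out. For the difference between the lines in that change, against 2 calls, these settings gave 4, 6, 0 and 0 to 10, and quantile scaling gave 1. For BERKO against WT, the compared groups alone gave 12 calls in MN with LY3201, and leaving out 1 array gave 23 to 30 in untreated MN, 16 to 23 in MN with LY3201, 5 to 8 in mDPC, 1 to 6 in NPC and 1 to 2 in mESC. Quantile scaling gave 3 calls in NPC. In mESC no filter gave 1, quantile scaling 1, averaging same-number arrays 1 and the compared groups alone 0. From mDPC to MN, 28 to 31 were called in BERKO with 1 array left out, 21 to 24 in WT, and 20 to 23 for the difference. From NPC to mDPC the ranges were 6 to 10 in BERKO, where centring on negative controls gave 18, and 2 to 5 in WT. From mESC to NPC they were 18 to 21 in BERKO and 20 in WT. The other cluster of Irf1 turned its sign in 5 comparisons and was called in none of them. Its values were -0.23 for BERKO against WT in MN with LY3201, -0.041 from mDPC to MN in BERKO, -0.017 in WT, -0.023 for the difference of these steps, and 0.00043 from mESC to NPC in BERKO. Single ISGs lost their call in 192 of the other combinations of gene, comparison and alternative. Centring on negative controls moved the median of all genes by 0.16 (BERKO) and 0.17 (WT) from mDPC to MN, where the ISGs called in WT were then 27 higher and 0 lower. It moved the median by 0.18 and 0.11 from NPC to mDPC, and quantile scaling moved it by 0.11 from mESC to NPC in BERKO. Groups hold 2 or 3 arrays, and the signal of 16 ISGs stayed within that of the negative controls, which limits how well their changes are known.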
